A study of Mus musculus with 12 samples.

Results

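The 18 h response of alveolar-like mouse macrophages to the Toll-like receptor 2 (TLR2) ligand Pam3CSK4 was measured in cells that had not been given TGFβ. Members are the libraries of the 2 groups without TGFβ, taken by their titles: 3 of Pam3-treated and 3 of untreated cells, 6 of the 12 libraries in the series. The count table names the untreated columns UNT where the sample titles have UT, and these were matched by the likeness of the names and the replicate number that both carry. The cells are fetal liver alveolar-like macrophages (FLAMs), which are grown from mouse fetal liver. Per the labels, the cells of all 6 libraries received GM-CSF at 30 ng/ml and none received recombinant human TGFβ1. Those of the other 6 libraries received TGFβ1 at 20 ng/ml. Pam3CSK4 (Pam3 below) was given at 25 ng/ml for 18 h in the treated group and not in the untreated group. The labels do not state the mouse strain, how long the cells had been without TGFβ, or whether the 3 libraries of a group came from separate cultures, so p-values measure only the spread between these libraries. Polyadenylated RNA was sequenced, and the values are read counts per gene, given below as CPM, counts scaled to library size with TMM factors. Since the measure is one of RNA from whole cultures, fewer cells of a type and less RNA per cell cannot be told apart.

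TLR2 is a surface receptor of macrophages for bacterial lipoproteins. With TLR1 it binds triacylated lipopeptides, of which Pam3 is a synthetic form, and with TLR6 diacylated ones, and the signal runs through the adaptor MyD88 and the IRAK kinases to NF-kB and the MAP kinases. Type I interferons act through their own receptor, the kinases JAK1 and TYK2 and a complex of STAT factors with IRF9, which binds the interferon-stimulated response element (ISRE) in promoters. In the lung, GM-CSF and TGFβ both maintain alveolar macrophages.

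The 6 libraries held 34443099 to 41915315 counts. Macrophage markers made up 34800 to 38800 CPM in the untreated libraries and 37100 to 38200 CPM with Pam3, summed over 12 genes. Markers of other cells were low: the summed level was at most 0.65 CPM for 7 lymphocyte genes, with Cd3e, Ms4a1 and Ncr1 at 0, and 18.9 to 25.0 CPM for 6 dendritic cell genes, with Flt3 at 0. The hepatocyte genes Alb, Ttr, Apob and Serpina1a were at 0, though Afp had 5.7 to 7.7 CPM, and the stromal and epithelial genes Col1a1, Col1a2 and Sftpc were at 0. Of alveolar macrophage markers, the untreated libraries held 34.3, 30.1 and 32 CPM of Siglecf and at most 0.21 CPM of Krt79. Untreated replicate 3 stood apart from the other 5 libraries on the second principal component, which holds 27.3% of the variance, and held 392 CPM of the RNAs Rn7sk, Rmrp and Rpph1, which have no poly(A) tail, against 5.31 and 8.45 CPM in the other 2 untreated libraries and 5.31, 78.2 and 128 CPM with Pam3. Pam3 replicate 1 stood apart from the other Pam3 libraries: its counts differed from theirs by a chi-square per degree of freedom of 133 and 220, against 24.6 between those libraries, as those of untreated replicate 3 did within its group (159 and 183 against 17.7). The main counts are therefore given below also without either library.

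Of 14749 genes that passed the filter on low counts, 1419 were called higher with Pam3 and 1278 lower (edgeR's quasi-likelihood test at an adjusted p of 0.05, with Benjamini-Hochberg adjustment across these genes, which is also the test behind each adjusted p given later). These are 9.62% and 8.66% of the genes tested, and 18.3% in either direction. The same shares are the comparison for the counts of called list members below. Without untreated replicate 3 the counts were 1321 higher and 1348 lower, and without Pam3 replicate 1 they were 1046 and 919. Most changes were small: 1914 of the 2697 called genes changed by less than 0.5 on the log2 scale. Larger changes were mostly increases, with 228 genes (1.55%) higher by at least 1 on the log2 scale and 59 (0.4%) lower by at least 1, and at 2 or more 96 higher and 13 lower. For 15.6% of the tested genes all 3 Pam3 libraries lay above all 3 untreated ones, and for 15.8% below.

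**Figure D1:**
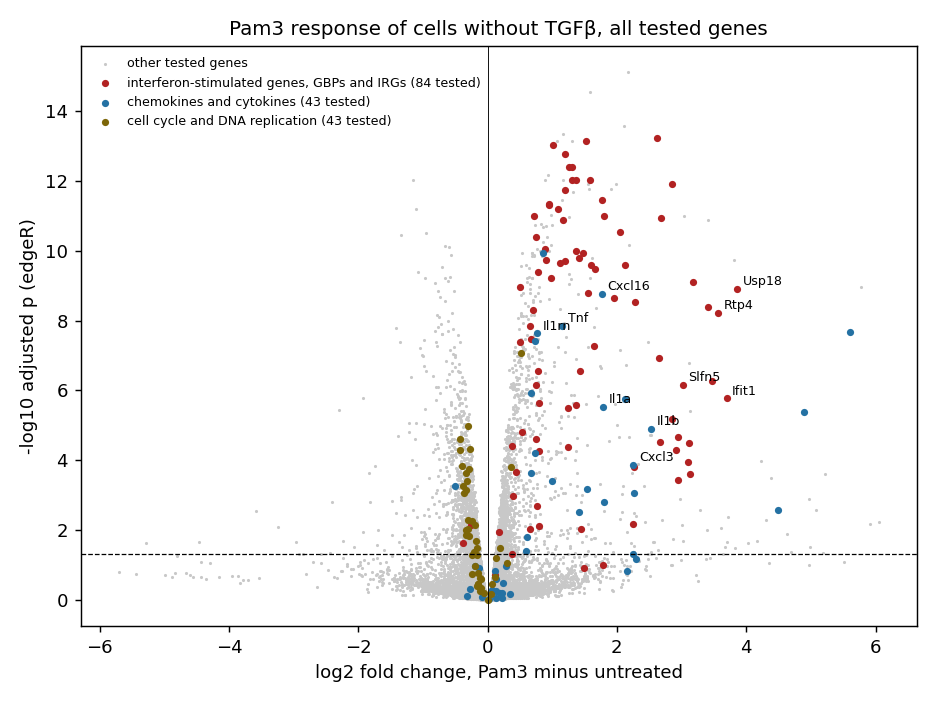
Each dot is 1 of the 14749 tested genes. The x axis is the log2 fold change of Pam3 over untreated cells, the y axis −log10 of the adjusted p of edgeR, and the dashed line an adjusted p of 0.05. Colours mark the interferon-stimulated genes with the GBP and IRG GTPases, the chemokines with the cytokines, and the cell cycle genes. Most interferon-stimulated genes lie to the right of 0 above the line, and most called cell cycle genes lie to its left with small changes.

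Interferon-stimulated genes rose nearly throughout. Of 67 tested members of this list, 64 rose, 42 of them by at least 1 on the log2 scale, and the median log2 fold change was 1.42 against 0 over all tested genes. Of the others, Ifi44 and Uba7 were not called, 1 gene was called lower (0 without untreated replicate 1), and Trex1 had 0 counts in the 6 libraries and was not tested. Without untreated replicate 3, 63 were called higher, and without Pam3 replicate 1, 62. The list was chosen with earlier results of these data known, so its direction is not independent evidence.

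Usp18 (chr6:121222848-121247877, GRCm39), which removes ISG15 from proteins and restrains the interferon receptor, had 0.789, 1.52 and 1.74 CPM in the untreated libraries and 22.4, 20.5 and 15.7 CPM with Pam3, or 3.86 on the log2 scale, with SE 0.20 and an adjusted p of 1.23e-09. Ifit1 (chr19:34618271-34632174, GRCm39), which encodes an RNA-binding antiviral protein, went from 2.08, 3.49 and 3.68 to 46.1, 40.3 and 33.5 CPM, or 3.70 on the log2 scale, with SE 0.22 and an adjusted p of 1.67e-06. In both genes Pam3 replicate 3 was the lowest of the Pam3 libraries and still far above the highest untreated one. Rsad2, the antiviral enzyme viperin, had 1.55, 4.91 and 5.42 CPM untreated and 41.8, 35.9 and 26.1 CPM with Pam3 (3.13, SE 0.34, on the log2 scale). Isg15, the ubiquitin-like modifier, had 2.52, 3.9 and 2.31 CPM untreated and 20.9, 18.9 and 16.6 CPM with Pam3 (2.68, SE 0.14). Neither gene's groups overlapped.

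Irf7, the factor that amplifies interferon gene expression, went from 5.47, 9.36 and 5.9 to 57, 48.4 and 45.9 CPM (log2 fold change 2.86, SE 0.20, adjusted p 6.75e-06). All 3 Pam3 libraries lay above all untreated ones. Stat2 (1.01) and Irf9 (1.25), of the complex that binds the ISRE, rose too. The cytosolic RNA sensors rose as well: Rigi, listed as Ddx58, by 1.52, Ifih1 (MDA5) by 1.12 and Dhx58 (LGP2) by 1.37. Among effectors, the GTPase Mx1 went from 12.1 ± 2.28 to 58 ± 9.42 CPM (mean ± SD, n = 3 in each group, as for all means below), the oligoadenylate synthetase Oas3 from 8.06 ± 2.68 to 62.5 ± 5.64 CPM, and Slfn5, of the Schlafen family, from 22.8 ± 4.72 to 184 ± 21 CPM. Values for close copies, such as the Ifi200 genes, Oas1a and Oas1g, Ifit3 and Ifit3b, the Schlafens, the GBPs and the H2 genes, are uncertain, since reads shared between them may have been split or dropped in the authors' counting.

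**Figure D2:**
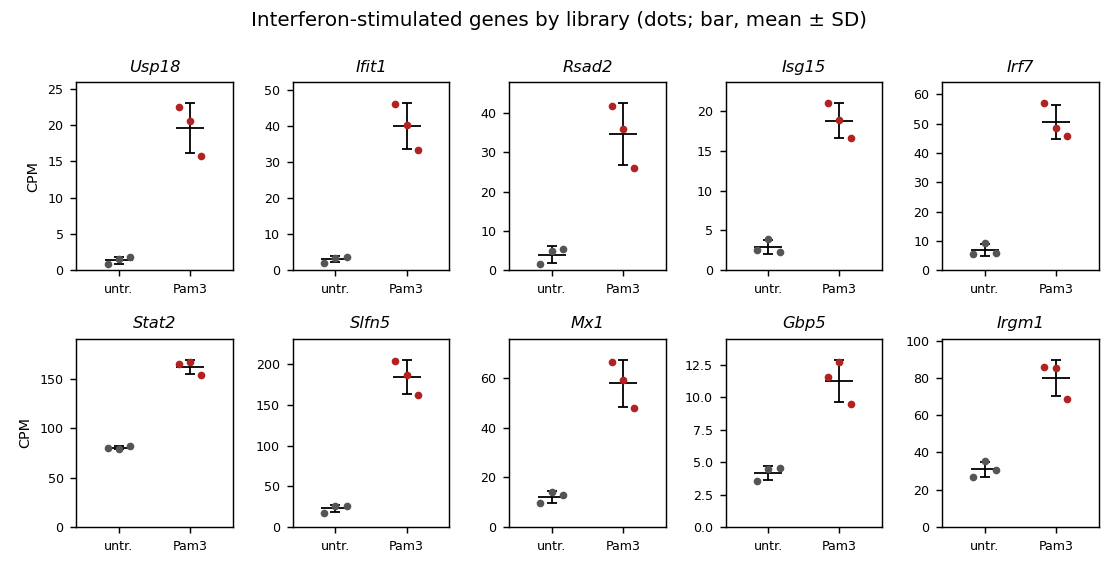
CPM of 10 interferon-stimulated and GTPase genes in each library: dots are the 3 untreated (grey) and 3 Pam3 (red) libraries, bars the mean ± SD, and each y axis starts at 0. In all 10 genes the 3 Pam3 libraries lie above the 3 untreated ones, by a log2 fold change from 1.01 (Stat2) to 3.86 (Usp18).

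The promoters of 3 of these genes and of the chemokine gene Cxcl10 are shown because they hold the letters of the ISRE core, searched as GAAA, any 2 bases and GAAA on either strand. Each run is the 250 bases before the gene's start, from the RefSeq promoter table (build GRCm38.p6), 5′ to 3′ on the gene's strand, with capitals for matches. Ifit1 (chr19:34640639-34640888, plus strand) has 2 matches, Isg15 (chr4:156200819-156201068, minus strand) 3 that overlap, and Rsad2 (chr12:26456453-26456702, minus strand) 1. In Cxcl10 (chr5:92348890-92349139, minus strand) capitals mark 1 ISRE match, which begins 213 bases before the start, and 2 matches to the NF-kB consensus, which begin 159 and 103 bases before it.
Ifit1: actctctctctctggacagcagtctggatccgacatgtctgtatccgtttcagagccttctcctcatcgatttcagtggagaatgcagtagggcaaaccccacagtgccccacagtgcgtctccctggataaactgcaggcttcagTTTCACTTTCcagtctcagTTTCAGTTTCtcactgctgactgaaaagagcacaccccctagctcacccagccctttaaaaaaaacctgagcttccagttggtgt
Isg15: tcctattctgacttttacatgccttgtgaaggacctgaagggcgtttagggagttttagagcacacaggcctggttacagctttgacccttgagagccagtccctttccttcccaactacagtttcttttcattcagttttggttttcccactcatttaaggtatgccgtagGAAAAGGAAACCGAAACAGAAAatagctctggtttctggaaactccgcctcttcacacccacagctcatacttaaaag
Rsad2: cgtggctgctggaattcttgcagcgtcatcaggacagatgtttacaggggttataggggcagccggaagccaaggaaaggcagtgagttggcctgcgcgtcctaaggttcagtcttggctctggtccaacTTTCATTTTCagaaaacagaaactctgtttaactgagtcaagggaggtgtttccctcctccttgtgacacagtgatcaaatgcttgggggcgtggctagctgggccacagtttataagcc
Cxcl10: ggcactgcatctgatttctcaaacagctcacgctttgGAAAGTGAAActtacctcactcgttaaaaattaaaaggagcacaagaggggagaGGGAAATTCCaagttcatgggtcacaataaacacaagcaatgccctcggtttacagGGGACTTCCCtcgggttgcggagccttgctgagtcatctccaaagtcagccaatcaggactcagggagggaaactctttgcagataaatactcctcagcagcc
Over windows of 300 bases, which run 50 bases past the start, 3.99% of the 27025 genes in the promoter table hold the ISRE core and 5.14% the NF-kB consensus. Of the interferon-stimulated genes, 52 of 68 were matched in the table and 28 of those hold the ISRE core. As fewer than 80% of the list were matched, this count is void as a check of the list. A match describes letters and not a site in use.

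The IFN-β gene and the IFN-α genes looked up were not detected at 18 h in these cells. Ifnb1, Ifna1, Ifna2, Ifna4 and Ifna5 had 0 counts in each of the 6 libraries, which allows up to 0.0722 to 0.0953 CPM (3 counts a library, counting error only). Ifnk, which encodes the type I interferon IFN-κ, had 0, 0 and 0 counts untreated and 5, 1 and 5 with Pam3 and was not tested. Of 17 tested genes for interferon receptors, their kinases, IRFs and sensor adaptors, 6 rose and 5 fell (64.7% called). The lower count was 3 without untreated replicate 1. The list's median log2 fold change was 0.05, and 0.01 without Pam3 replicate 1. The receptor chain Ifnar1 went from 107 ± 6.63 to 139 ± 3.21 CPM (0.38, SE 0.055, log2 scale), and the DNA sensor Cgas from 27.2 ± 1.49 to 38.6 ± 1.49 CPM (0.50). Its adaptor Sting1 fell, from 96, 102 and 97.6 to 75, 73.4 and 78.3 CPM (−0.38, adjusted p 1.12e-05), and so did Irf4 (−0.25), a factor of alternative activation. Tyk2, a kinase of the interferon receptor, fell from 158 ± 5.47 to 139.9 ± 2.62 CPM (−0.18, adjusted p 0.00605), a call lost without untreated replicate 1 (adjusted p 0.0573). Irf1 rose by 0.19 with an adjusted p of 0.0185, a call lost without Pam3 replicate 2 (adjusted p 0.134). Irf3, Irf5 and Irf8 were not called.

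The GBP and IRG GTPases, which attack the vacuoles of intracellular microbes, rose nearly as broadly. Of 17 tested, 15 were called higher and 1 lower, with a median log2 fold change of 1.24. Gbp5 had 3.55, 4.45 and 4.56 CPM untreated and 11.6, 12.7 and 9.5 CPM with Pam3 (1.43, SE 0.15, adjusted p 2.76e-07). Irgm1, which regulates other IRG proteins, had 26.8, 35.1 and 30.6 CPM untreated and 86, 85.2 and 68.9 CPM with Pam3 (1.38, SE 0.12). For both genes all Pam3 libraries were above all untreated ones. Iigp1 (3, 12 and 4 counts untreated and 43, 25 and 18 with Pam3) and Tgtp2 (12, 13 and 12 and 45, 26 and 25) had few counts and lost their calls without Pam3 replicate 1 (adjusted p 0.0519 and 0.0673). Gbp8 was the member called lower (−0.38), a call lost without any 1 of 4 libraries, untreated replicate 3 among them (adjusted p 0.155).

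MHC class I genes rose in part. Of 23 tested genes of class I presentation, 9 rose and none fell (39.1% called, median log2 fold change 0.22). Without untreated replicate 3, 7 rose and the median was 0.14. The non-classical class I gene H2-T24 went from 10.7, 9.96 and 11.3 to 32.8, 30.7 and 31.8 CPM (1.58, SE 0.089, adjusted p 1.71e-12). Nlrc5, the transactivator of class I genes, went from 8.77 ± 1.06 to 23.5 ± 2.73 CPM (1.42), and the peptide transporter Tap1 from 37 ± 3.35 to 73.7 ± 5.96 CPM (0.99). The classical gene H2-K1 rose by 0.35, while for H2-D1 the change was 0.02 (adjusted p 0.842). Class II genes H2-Aa, H2-Ab1 and H2-Eb1 were not called, with changes of −0.02, −0.05 and 0, while H2-DMa, of the complex that loads class II with peptides, fell by 0.26 (adjusted p 0.000842). The invariant chain gene Cd74 rose by 0.19 (0.12 without untreated replicate 3), a call lost in 3 alternative fits (adjusted p up to 0.136).

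Costimulatory genes were mixed. Within a list of 19 class II and costimulation genes, 5 rose and 3 fell (42.1% called, against 18.3% of all tested genes). Cd274 (PD-L1), a ligand of the T cell inhibitory receptor PD-1, rose from 192 ± 1.54 to 244 ± 9.92 CPM (0.35). Cd40 rose from 0, 8 and 6 counts to 29, 20 and 17 counts (adjusted p 0.00399), and Cd80 and Cd86 were not called. The inhibitory receptor genes Havcr2 (TIM-3) and Vsir (VISTA) fell: Havcr2 from 44, 43.1 and 48.2 to 28, 26.5 and 28.4 CPM (−0.71, SE 0.069, adjusted p 2.48e-08), and Vsir from 350.2 ± 7.73 to 244 ± 2.27 CPM (−0.52). In both genes all Pam3 libraries were below all untreated ones.

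**Figure D3:**
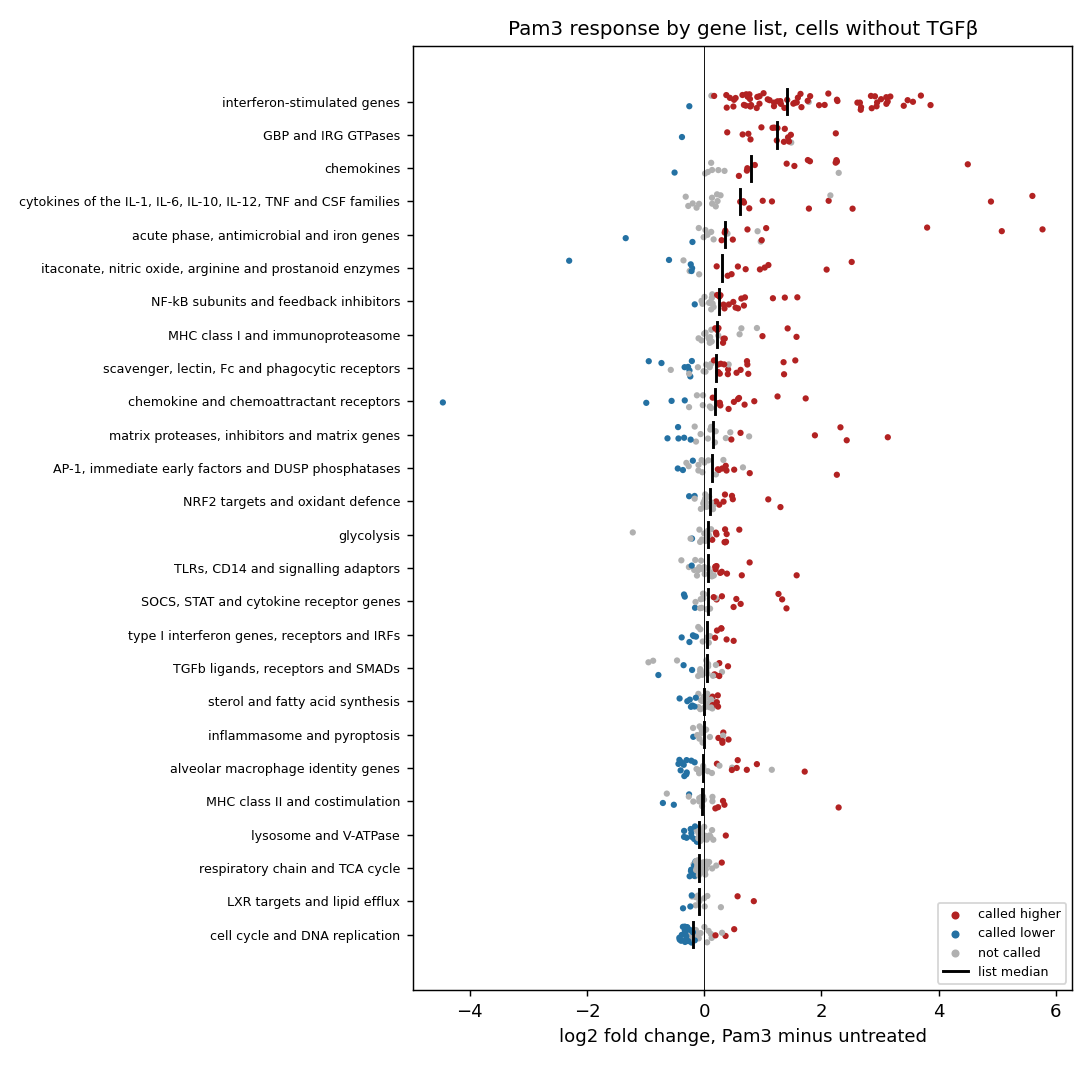
Log2 fold change of Pam3 over untreated cells for each tested member of the 26 gene lists, 1 row per list in order of the list median (black bar). Red dots were called higher, blue dots lower and grey dots were not called. The interferon-stimulated genes (median 1.42) and the GBP and IRG GTPases (1.24) have the highest medians and the cell cycle genes (−0.19) the lowest.

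Of 27 tested Toll-like receptors, co-receptors and signalling adaptors, 10 rose and 1 fell (40.7% called, and 3 fell without untreated replicate 2). Their median log2 fold change was 0.07, and 0.03 to 0.12 when single libraries were left out, with the extremes without untreated replicates 2 and 1. Tlr2 (chr3:83743576-83749074, GRCm39) had 427, 483 and 452 CPM untreated and 618, 589.7 and 575 CPM with Pam3 (0.39, SE 0.054, adjusted p 6.16e-06). The gene of its partner for Pam3, Tlr1, rose from 12.3, 11.6 and 13.3 to 20.0, 17.2 and 20.9 CPM (0.64), while Tlr6 had 25.3 ± 1.62 CPM untreated and 26.6 ± 0.81 CPM with Pam3 and was not called (adjusted p 0.610). Cd14, the co-receptor that hands lipopeptides to TLR2, had 41.5, 46.3 and 41 CPM untreated and 70.5, 64.3 and 85.9 CPM with Pam3 (0.78, SE 0.093). For Tlr2, Tlr1 and Cd14 the groups did not overlap. Myd88 rose by 0.21. The list's largest change was in Irak3 (IRAK-M; chr10:119975568-120038035, GRCm39), which restrains signalling through MyD88: it went from 44.8, 46.6 and 49.3 to 143, 131 and 147 CPM, or 1.58 on the log2 scale, with SE 0.061 and an adjusted p of 2.83e-15. Irak1, a kinase that passes the signal on, fell by 0.21. Tlr4, Irak4 and Traf6 were not called.

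In the NF-kB list, Nfkbiz, Traf1 and Zc3h12a had the largest increases. Of 27 tested, 15 rose and 1 fell (59.3% called, median 0.26), and 14 rose without untreated replicate 3 and 11 without Pam3 replicate 3. Nfkbiz, an atypical inhibitor protein that also acts as a coactivator, went from 7.92, 8.13 and 9.61 to 27.8, 24.9 and 24.5 CPM (1.59, SE 0.12, adjusted p 6.12e-10). Zc3h12a (regnase-1), a ribonuclease that degrades cytokine mRNAs, went from 42.4, 50.9 and 46.6 to 101, 102 and 113 CPM (1.17, SE 0.064). Traf1, an adaptor of TNF receptors, went from 0.947, 1.27 and 1.23 to 3.28, 2.73 and 2.96 CPM (1.38, SE 0.25). All Pam3 libraries were above all untreated ones in these 3 genes. The inhibitor Nfkbia rose from 118 ± 9.05 to 183 ± 4.01 CPM (0.63), the deubiquitinase gene Tnfaip3 (A20) from 43.5 ± 2.55 to 69.6 ± 3.42 CPM (0.68), and its partner Tnip1 from 137 ± 15.8 to 222 ± 8.14 CPM (0.70). Of the subunits, Nfkb1 rose by 0.54, Rel by 0.28 and Nfkb2 by 0.26, and Rela and Relb were not called. The calls of Rel and Nfkb2 were lost in 3 and 4 alternative fits (adjusted p up to 0.0576 and 0.106). Ikbkb, the member called lower (−0.16), lost its call in 6 alternative fits, among them those without any 1 of 5 of the 6 libraries, with adjusted p up to 0.111. AP-1, immediate early and DUSP phosphatase genes split, with 8 of 22 higher and 3 lower (50% called). Ier3 (0.78), Dusp16 (0.51) and Fos (0.38) were among the higher and Dusp5 (−0.45) and Dusp7 (−0.36) among the lower.

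Nfkbia and the chemokine gene Cxcl2 are shown as 2 of the NF-kB targets whose promoters hold the NF-kB consensus, marked in capitals in the same 250-base windows of GRCm38.p6. The match in Nfkbia (chr12:55492648-55492897, minus strand) begins 29 bases before the start, and in Cxcl2 (chr5:90903649-90903898, plus strand) 2 overlapping matches begin 97 and 96 bases before it.
Nfkbia: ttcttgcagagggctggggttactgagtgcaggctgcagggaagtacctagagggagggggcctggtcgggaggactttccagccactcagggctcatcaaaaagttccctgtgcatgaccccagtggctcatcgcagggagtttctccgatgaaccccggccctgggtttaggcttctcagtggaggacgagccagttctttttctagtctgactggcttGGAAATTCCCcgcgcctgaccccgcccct
Cxcl2: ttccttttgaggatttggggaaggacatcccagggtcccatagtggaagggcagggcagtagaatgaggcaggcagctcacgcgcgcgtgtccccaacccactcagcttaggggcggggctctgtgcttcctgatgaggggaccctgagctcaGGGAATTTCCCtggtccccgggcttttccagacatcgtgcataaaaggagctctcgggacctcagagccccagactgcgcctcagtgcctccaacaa
In the NF-kB list 23 of 27 genes were matched in the table, and 10 of these hold the consensus, or 43.5%, beside 5.14% of all genes there. Among the matched genes, Traf1 (1.38) and Zc3h12a (1.17) do not hold it, while Cyld (−0.05) and Nfkbid (0.12) do. Here too a match describes letters and not a site in use.

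The neutrophil chemokine genes Cxcl1, Cxcl2, Cxcl3 and Cxcl5 rose. Of 20 tested chemokine genes, 12 rose and 1 fell, with a median log2 fold change of 0.80; among genes with at least 10 counts in every library 6 were called higher. Cxcl2, a neutrophil chemoattractant, had 14.6, 26 and 21.6 CPM untreated and 61.4, 53.2 and 66.6 CPM with Pam3 (1.54, SE 0.20, adjusted p 0.000666). Its relative Cxcl3 had 13.9, 21.9 and 21.8 CPM untreated and 90.2, 75.9 and 109.5 CPM with Pam3 (2.26, SE 0.23). Each Pam3 library held over 2 times the highest untreated level in both genes. Cxcl10, which attracts T cells and is induced by interferons, went from 2.08, 3.22 and 1.88 to 13.3, 12.4 and 8.99 CPM (2.27, SE 0.30), and Cxcl16, a ligand of CXCR6, from 4.1 ± 1.25 to 14 ± 1.07 CPM (1.77). Ccl3 (0.74), Ccl9 (0.86) and Ccl17 (0.73) rose by less. Ccl2, the main monocyte attractant, had 58.4, 67.4 and 67.5 CPM untreated and 69.8, 69.2 and 73.2 CPM with Pam3 and was not called (0.13, adjusted p 0.257), nor were Ccl4 (0.02) and Ccl7 (0.35). Ccl12, another monocyte chemokine, had 2, 8 and 0 counts untreated and 19, 11 and 16 with Pam3, without overlap, and was not called either (adjusted p 0.0688), though 2 alternative fits called it higher (adjusted p 0.022 without untreated replicate 2 and 0.0376 with a covariate for RNAs without a poly(A) tail). Cx3cl1 (fractalkine) was the member that fell, from 13 ± 0.632 to 9.15 ± 1.5 CPM (−0.51).

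Of 23 tested cytokine genes 11 rose and none fell (median 0.62; 1 was lower without untreated replicate 1 and 1 without Pam3 replicate 3), and 7 rose among genes with at least 10 counts in every library, where the median was 0.28. Il1b (chr2:129206490-129213059, GRCm39) had 46.8, 76.6 and 61.3 CPM untreated and 385, 308 and 376 CPM with Pam3 (2.53, SE 0.18, adjusted p 1.28e-05). Il1a had 90.8, 128 and 114 CPM untreated and 409.9, 359 and 382 CPM with Pam3 (1.79, SE 0.13). The groups were well apart in both. Their antagonist Il1rn went from 467 ± 51 to 795 ± 44.4 CPM (0.77). Tnf had 59.3, 76.4 and 59.9 CPM untreated and 151, 141 and 144 CPM with Pam3 (1.16, SE 0.083, adjusted p 1.42e-08). Il6, a driver of the acute phase response, had 0.737, 1.76 and 1.65 CPM untreated and 7.0, 5.5 and 5.62 CPM with Pam3 (2.12, SE 0.25). In both genes the lowest Pam3 library exceeded the highest untreated one.

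Some cytokines came from near 0. Il36a, listed as Il1f6, had 0, 0 and 2 counts in the untreated libraries and 44, 29 and 35 counts with Pam3 (adjusted p 2.09e-08). Il12b, a subunit of IL-12 and IL-23, had 0, 7 and 0 counts untreated and 79, 55 and 67 counts with Pam3 (adjusted p 4.21e-06). Untreated cells thus held next to no RNA of either gene, and all 3 Pam3 libraries held some. The IL-12 partner Il12a had 0 counts in all 6 libraries and Il10, the main anti-inflammatory cytokine, 1 count in Pam3 replicate 1 and 0 elsewhere; neither was tested. Csf2, the gene of GM-CSF, had 0 counts throughout. Il18, Csf1 and Osm were not called.

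Socs1 and Socs3, which block JAK and STAT signalling, rose: Socs1 from 6.08, 7.03 and 6.99 to 17.6, 17.4 and 18.2 CPM (1.40, SE 0.12, adjusted p 1.76e-09) and Socs3 from 39.7, 55.2 and 40.0 to 118, 105 and 116 CPM (1.33, SE 0.11). Neither gene's groups overlapped. Within the list of 23 SOCS, STAT and cytokine receptor genes 9 rose and 3 fell (52.2% called). Tnfrsf1b, a TNF receptor, rose by 0.55, and the IL-6 receptor chains Il6ra (−0.33) and Il6st (−0.34) fell. Stat3, Stat5a, Stat5b and Stat6 were not called.

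**Figure D4:**
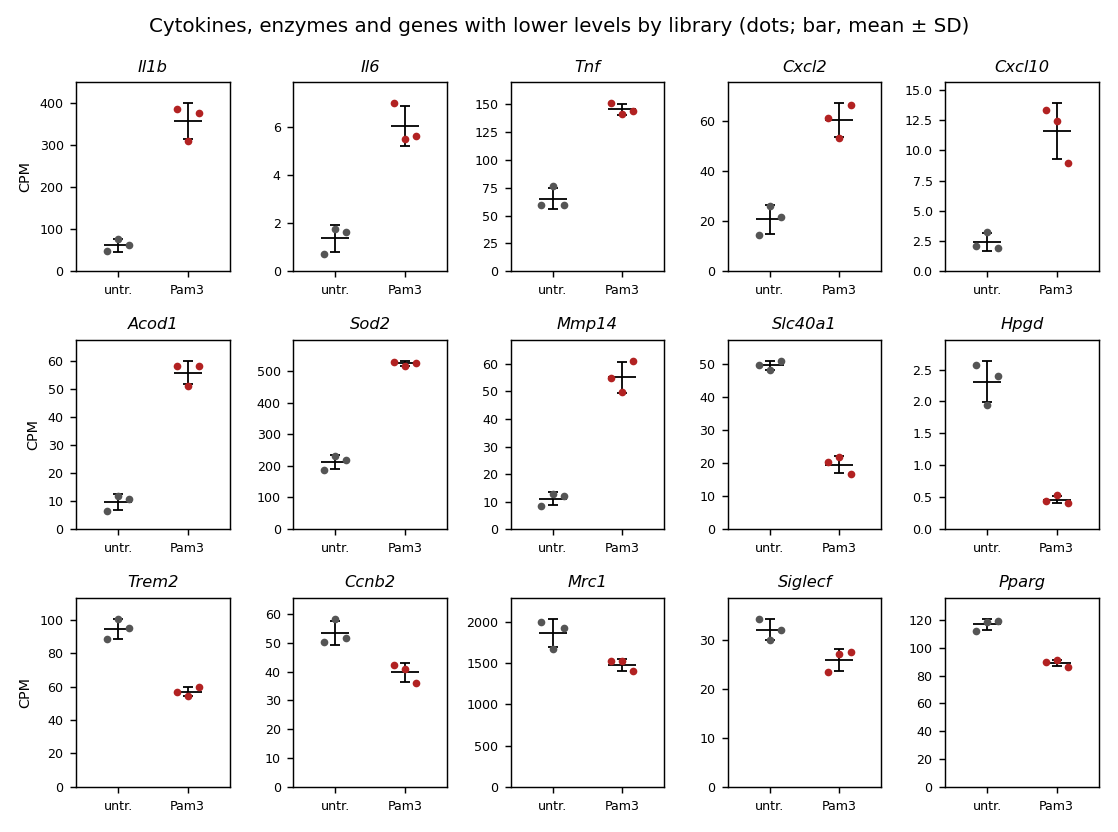
CPM of 15 genes in each library: dots are the 3 untreated (grey) and 3 Pam3 (red) libraries, bars the mean ± SD, and each y axis starts at 0. The first 8 genes, from Il1b to Mmp14, were higher with Pam3 and the last 7, from Slc40a1 to Pparg, lower, with no overlap between the groups in any of the 15.

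Enzymes of itaconate, arginine and prostanoid metabolism changed in both directions. Of 18 tested, 10 rose and 5 fell (83.3% called). Acod1, which makes itaconate, went from 6.58, 11.9 and 10.7 to 58.2, 51 and 58 CPM (2.52, SE 0.20, adjusted p 1.93e-05). Ptgs2 (COX-2), the inducible enzyme of prostaglandin synthesis, had 0.421, 0.529 and 0.57 CPM untreated and 2.31, 1.8 and 2.38 CPM with Pam3 (2.09, SE 0.41). Ptges, which makes prostaglandin E2, rose from 10.4 ± 1.62 to 22.3 ± 2.96 CPM (1.10). Hpgd, which degrades prostaglandins, fell from 2.58, 1.95 and 2.4 to 0.442, 0.531 and 0.413 CPM (−2.30, SE 0.31, adjusted p 3.76e-06). For these 4 genes the groups were apart in every library. Of the leukotriene genes, Ltc4s fell by 0.60, Alox5 by 0.23 and Lta4h by 0.22, and Alox5ap was not called. Nos2, the inducible nitric oxide synthase, had 0 to 2 counts in each library and was not tested, while Ass1 (1.03), Slc7a2 (0.71) and Gch1 (0.57), which supply its substrate or make its cofactor, rose.

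Among acute phase and iron genes was Lcn2 (lipocalin 2; chr2:32274645-32278264, GRCm39), the gene with the largest fitted increase named by the rule for large changes. Lcn2, which binds bacterial siderophores, had 2, 1 and 12 counts in the untreated libraries and 268, 282 and 244 with Pam3, or 0.0526, 0.0241 and 0.342 and 6.97, 7.49 and 7.75 CPM. Its log2 fold change was 5.77 (SE 0.41, adjusted p 1.07e-09), and 7.49 without untreated replicate 3, whose level was the highest of the untreated libraries. Saa3, an acute phase protein of macrophages, went from 0.605, 0.361 and 0.513 to 7.44, 6.29 and 6.96 CPM (3.80, SE 0.28). Hp (1.06), the complement factor Cfb (0.98) and Slc11a1 (0.74), a metal pump of phagosomes, rose by smaller steps. Slc40a1 (ferroportin), the iron exporter, fell from 49.8, 48.3 and 50.9 to 20.4, 21.7 and 16.6 CPM (−1.34, SE 0.090, adjusted p 3.48e-11), and the highest Pam3 library lay far below the lowest untreated one. The iron importer Tfrc (0.49) and the ferritin heavy chain Fth1 (0.35) rose. Of the 21 tested genes of this list, 10 rose and 2 fell (57.1% called). The second lower gene, Steap3, lost its call without any 1 of 9 libraries of the fit.

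Of the oxidant defence genes, 8 of 24 rose and 2 fell (41.7% called). The 2 lower genes, Gpx1 and Gpx3, lost their calls without untreated replicate 2 or Pam3 replicate 1. Sod2, the mitochondrial superoxide dismutase, had 188, 230.5 and 219 CPM untreated and 529, 516 and 526 CPM with Pam3 (1.30, SE 0.060, adjusted p 7.36e-14), and the cystine importer Slc7a11 rose from 188, 202 and 241 to 451, 416 and 479.6 CPM (1.09). Neither gene's groups overlapped. Cybb, the catalytic subunit of the phagocyte oxidase, rose by 0.49, and Nqo1 and Gclc, which are typical NRF2 targets, were not called.

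Of 32 tested surface receptors for microbes, antibodies and debris, 16 rose and 7 fell (71.9% called). The C-type lectin gene Clec4e (Mincle), a receptor for mycobacterial glycolipids, rose from 88.8, 128 and 121 to 311, 274 and 279 CPM (1.35, SE 0.14, adjusted p 9.62e-05). The inhibitory sialic acid receptor gene Siglece rose from 32.5, 41.8 and 40.0 to 109, 106 and 121 CPM (1.55, SE 0.070). Pam3 libraries were above untreated ones throughout for both. Clec4d (0.73), Clec5a (0.75), Olr1 (0.74), Stab1 (1.36), Marco (0.62) and Msr1 (0.40), lectins and scavenger receptors, rose too. Trem2, a lipid receptor, fell from 88.4, 100.1 and 95 to 56.8, 54.6 and 59.7 CPM (−0.73, SE 0.062, adjusted p 2.14e-09). The lectin gene Clec10a fell by 0.95, a call lost in 3 alternative fits (adjusted p up to 0.1). The other 5 that fell were Mrc1, the mannose receptor, by 0.33, Scarb1 by 0.28, Fcgr3 by 0.25, Axl by 0.24 and Mertk by 0.21.

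Among receptors for chemoattractants 12 of 22 tested genes rose and 4 fell (72.7% called). Cx3cr1, the fractalkine receptor, rose from 2.66, 2.38 and 2.22 to 8.71, 9.08 and 6.32 CPM (1.73, SE 0.19), while its ligand gene Cx3cl1 fell, as given above. The formyl peptide receptor genes Fpr2 (0.85) and Fpr1 (0.69) rose. Cxcr4, the receptor of CXCL12, fell from 22.5, 20.2 and 18.9 to 8.92, 10.7 and 11.5 CPM (−0.99, SE 0.11, adjusted p 1.95e-07), with no overlap.

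Of 29 tested alveolar macrophage identity genes 7 rose and 11 fell (62.1% called). The list's median was −0.02 (−0.105 without Pam3 replicate 2 and 0.06 without Pam3 replicate 1). Pparg, the nuclear receptor that sets the alveolar programme, fell from 112, 119 and 119 to 89.8, 91 and 86.5 CPM (−0.39, SE 0.045, adjusted p 4.10e-07). Siglecf fell from the untreated values given above to 23.4, 27.1 and 27.6 CPM (−0.31, SE 0.062). Groups were apart in both genes. The transcription factors Klf4 (−0.44), Bhlhe40 (−0.42) and Cebpa (−0.40) also fell. Against this, Car4, a carbonic anhydrase, rose from 448 ± 31.5 to 835 ± 29.6 CPM (0.90), and Maf, a factor of monocyte-derived and tissue macrophages, from 2.95, 2.57 and 3.02 to 8.89, 9.19 and 9.98 CPM (1.72). The GM-CSF receptor genes Csf2rb (0.47) and Csf2rb2 (0.55), which share sequence, rose, and Csf2ra was not called.

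Of 25 tested genes of the TGFβ pathway, 5 rose and 3 fell (32% called, against 18.3% of all tested genes), and 2 rose without Pam3 replicate 1. Tgfb1 had 502 ± 40.6 CPM untreated and 515 ± 16.1 CPM with Pam3 and was not called. The receptor gene Tgfbr2 fell from 484, 451 and 466 to 365, 372 and 361 CPM (−0.35, SE 0.042, adjusted p 6.63e-07), and the target gene Id3 from 38.6, 40.8 and 36.2 to 22.9, 22 and 22.3 CPM (−0.78, SE 0.071). All Pam3 libraries were below all untreated ones for both. Tgfbr1 rose by 0.26 (0.17 without untreated replicate 2), a call lost in 3 alternative fits (adjusted p up to 0.0768), and Smad7 was not called (0.30).

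Of 22 tested matrix genes 6 rose and 5 fell (50% called), and 2 rose among genes with at least 10 counts in every library. Mmp14, a membrane protease that activates other matrix proteases, went from 8.29, 12.8 and 11.8 to 54.7, 49.7 and 61 CPM (2.33, SE 0.24, adjusted p 0.000127), and Serpinb2, an inhibitor of plasminogen activators, from 4.31, 7.53 and 6.53 to 51.4, 44.2 and 66.2 CPM (3.13, SE 0.23). Both genes were higher in each Pam3 library than in any untreated one. Mmp9, a gelatinase, rose from 0.132, 0.722 and 0.57 to 1.35, 1.96 and 2.0 CPM, a call lost in 3 alternative fits (adjusted p up to 0.098). Thbs1 (thrombospondin) had 4.26, 3.97 and 4.39 CPM untreated and 16.2, 12.7 and 39.5 CPM with Pam3, so that replicate 3 held the highest level, and its call was lost in the fit of the 6 libraries alone (adjusted p 0.0656). Timp2 (−0.44), Mmp19 (−0.45) and the plasminogen activator Plau (−0.34) fell.

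Of 43 tested cell cycle genes 21 fell and 3 rose (55.8% called), all by under 1 on the log2 scale. The list's median log2 fold change was −0.19, and 16 fell without untreated replicate 1. The mitotic cyclin Ccnb2 went from 50.4, 58.3 and 51.5 to 42.3, 41 and 36 CPM (−0.42, SE 0.069, adjusted p 5.03e-05), and the spindle motor Kif11 from 46.9, 43.7 and 42.5 to 35.1, 33.3 and 31.1 CPM (−0.42, SE 0.064). Both were lower in every Pam3 library. Top2a (−0.31), Aurkb (−0.39) and the ribonucleotide reductase gene Rrm2 (−0.32) fell likewise, and the proliferation marker Mki67 was not called (−0.17, adjusted p 0.0535), though 6 alternative fits called it lower (adjusted p 0.00339 without untreated replicate 2 and 0.0243 to 0.0498 in the other 5). The D-type cyclins Ccnd2 (0.51) and Ccnd1 (0.36), which act earlier in the cycle, rose. The cell cycle inhibitor Cdkn1a (p21) fell by 0.29.

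Of 24 glycolysis genes 9 rose and 1 fell (41.7% called), the latter Hk3, not called without untreated replicate 2. The higher count was 6 without untreated replicate 1 or 3, and 11 without untreated replicate 2. Among those higher were the hexokinase Hk2 at 0.37, the phosphofructokinase Pfkl at 0.60 and the glucose transporter Slc2a1 at 0.35. Of 43 genes of the respiratory chain and TCA cycle 8 fell and 1 rose (20.9% called, close to the 18.3% of all tested genes), and among those lower were Idh1 (−0.22) and Idh2 (−0.25, or −0.15 without untreated replicate 2), which make 2-oxoglutarate. That count of lower genes depended on single libraries: it was 13 without untreated replicate 3, 5 without untreated replicate 2 and 3 without Pam3 replicate 3. Of 34 lysosome genes 11 fell and 1 rose (35.3% called), with the regulator Tfeb at −0.34 and Gpnmb at −0.34. Without Pam3 replicate 2 or 3, 7 fell, and without untreated replicate 2, 5 rose. In sterol and fatty acid synthesis 5 of 34 rose and 7 fell (35.3% called), beside 9.62% higher and 8.66% lower among all tested genes. The higher count was 2 without Pam3 replicate 1 and 3 without Pam3 replicate 2 or untreated replicate 3, and the lower count 4 without untreated replicate 1. In a separate list of LXR targets and lipid efflux genes 2 of 14 tested rose and 3 fell (35.7% called, median log2 fold change −0.095). Abca1, the cholesterol exporter, rose from 113, 96.3 and 111 to 183, 185 and 207 CPM (0.85, adjusted p 8.27e-05), and Ch25h, which makes 25-hydroxycholesterol, by 0.57.

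Of 17 tested inflammasome genes 5 rose and 1 fell (35.3% called, against 18.3% of all tested genes), with 3 lower without untreated replicate 2. The sensor Nlrp3 went from 83.5 ± 5.99 to 111 ± 9.52 CPM (0.42), and Casp1, Pycard and Gsdmd, which carry out the response, were not called.

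Beyond the lists, the rule for the largest changes named several genes with low counts. Gp6, a collagen receptor known from platelets, had 0, 1 and 0 counts untreated and 16, 12 and 12 with Pam3 (adjusted p 0.00126), Panx3, a channel protein, 0, 0 and 2 and 13, 15 and 16 (adjusted p 0.00515), and Rbfox1, a splicing factor, 0, 3 and 2 and 45, 22 and 27 (adjusted p 0.000106). On the lower side stood Selp (P-selectin) with 47, 48 and 29 counts untreated and 2, 0 and 7 with Pam3 (adjusted p 0.00276), Btla, an inhibitory receptor, with 13, 23 and 16 and 4, 5 and 0 (adjusted p 0.00155), and the amino acid transporter Slc36a2 with 102, 105 and 54 and 18, 29 and 17 (adjusted p 1.67e-06). These 6 genes kept their calls in every alternative fit that tested them. Cep295nl, Ivl, Galr2 and Lrrc34, also named by the rule as lower, each lost their calls in at least 4 alternative fits.

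Whether the response differed when cells had TGFβ was tested by the interaction, on the log2 scale: the fold change of Pam3 in TGFβ-treated cells less the fold change in cells without TGFβ. The 2 responses share no library, but the interaction holds the response without TGFβ with its sign reversed. Counts of interactions among genes called without TGFβ are therefore not independent of those calls. Of 14749 genes 2352 had a called interaction (15.9%), and of the 2697 genes called without TGFβ 1063 did (39.4%; 996 without untreated replicate 3 and 819 without Pam3 replicate 1). Among genes that rose without TGFβ, 650 rose by a larger fold with TGFβ and 95 by a smaller one or fell. Among genes that fell, 211 had a more negative response with TGFβ and 107 a less negative or positive one. Each fold change is over its group's own resting level. A larger one need not mean a higher level with Pam3, as Socs3 below shows. A positive interaction was called for 10.3% of all tested genes and for 64 of 67 interferon-stimulated genes, 17 of 17 GBP and IRG GTPases, 19 of 27 NF-kB genes and 13 of 20 chemokines.

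Single genes show the range. Usp18, which rose by 3.86 without TGFβ, differed by 2.43 (adjusted p 6.36e-05), and Ifit1 by 3.37 (adjusted p 9.91e-05). Ccl2, which was not called without TGFβ, differed between the responses by 5.60 (SE 0.22, adjusted p 4.93e-15), and Cxcl10 by 6.57 (adjusted p 3.44e-05). Some genes showed no called difference between the 2 responses: the interaction was −0.11 (SE 0.29) for Cx3cr1, −0.08 (SE 0.61) for Maf, −0.81 (SE 0.43) for Hpgd, −0.36 (SE 0.14) for Slc40a1, 0.18 (SE 0.088) for Trem2 and 0 (SE 0.063) for Pparg. That of Hpgd ranged from −1.14 to −0.51 as single libraries with Pam3 and TGFβ were left out, and that of Slc40a1 was called without Pam3 replicate 3. Siglece rose by less with TGFβ (interaction −0.88, SE 0.095, adjusted p 6.04e-07), and Socs3 by more (1.97). Socs3 started lower with TGFβ, at 11.1, 11.1 and 9.3 CPM against 39.7, 55.2 and 40.0 CPM untreated. With Pam3 it reached 110.4, 102.5 and 98.6 CPM with TGFβ and 118, 105 and 116 CPM without.

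**Figure D5:**
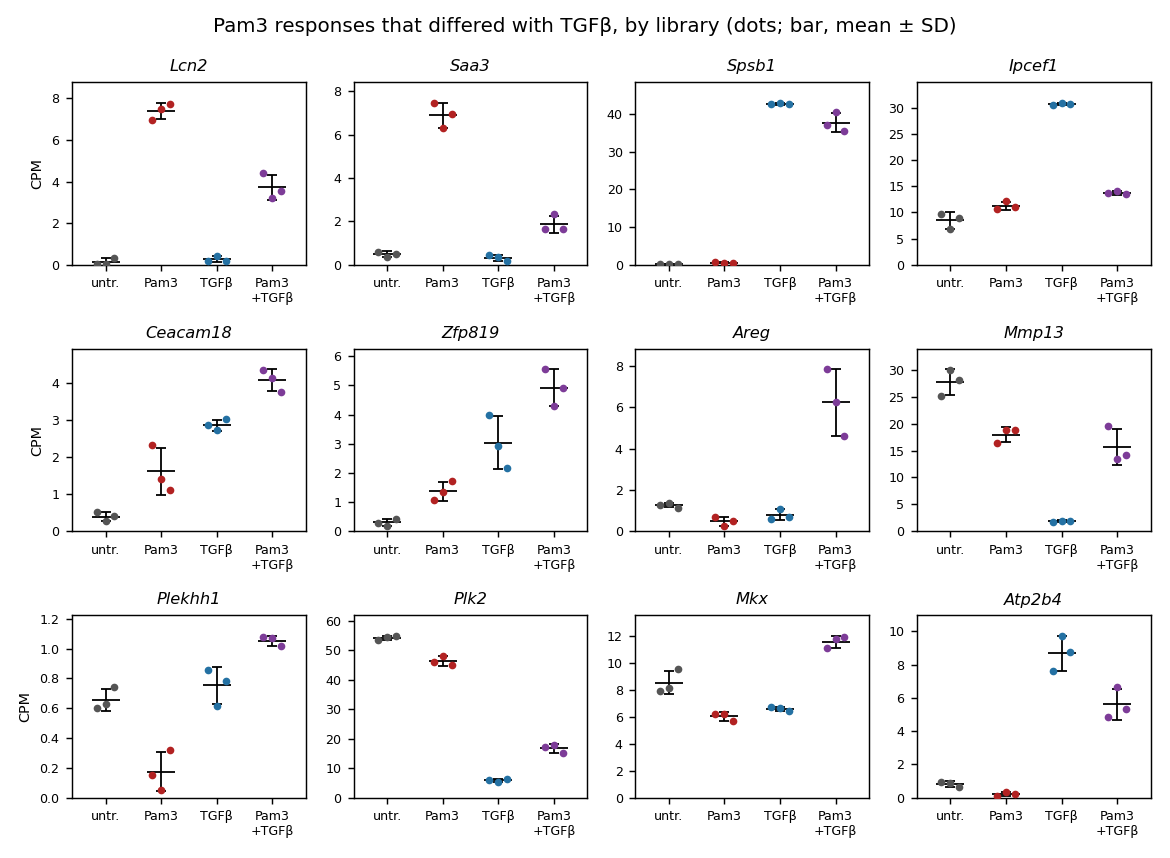
CPM in each library of the 4 groups (untreated, Pam3, TGFβ, Pam3 with TGFβ) for the 12 genes whose Pam3 response without TGFβ was most reduced or turned round with TGFβ: dots are libraries, bars the mean ± SD, and each y axis starts at 0. Areg was lower with Pam3 in cells without TGFβ and higher with Pam3 in cells with TGFβ, as was Mmp13, and Ipcef1 the other way round.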

How the data were processed

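RNA with poly(A) tails from 12 libraries was sequenced by the submitters. Per the submitters' processing notes, reads were demultiplexed with bcl2fastq 2.20.0, checked with FastQC 0.11.7, aligned to GRCm39 with Bowtie2 2.4.1, counted with featureCounts of Subread 2.0.0, and tested with DESeq2 1.36.0 in R 4.2.1. Bowtie2 does not split reads over introns, so reads across exon junctions may be lost, and the annotation, strand setting and handling of multi-mapped reads are not given in the sources used here.

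The values used are the raw read counts per gene symbol that the authors deposited, whole numbers without normalization. From these, edgeR 4.0.16 (R 4.3.3) fitted all 12 libraries with 4 group means (TMM scaling, filterByExpr with a minimum count of 10, robust quasi-likelihood). Of 40847 rows 14749 passed. The contrasts were Pam3 minus untreated without TGFβ, and the difference between the responses with and without TGFβ. Adjusted p-values are Benjamini-Hochberg over all tested genes, SE is the fold change over the root of F, and p is two-sided. CPM use TMM-scaled totals, and counting floors of 3 counts cover counting error only.

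Gene lists, members and tests were chosen with earlier results of these data known. Named genes were, per direction, the 8 largest changes without overlap and with 10 or more counts in all 3 libraries of the group with more, up to 4 called members per list and direction, a fixed list, the 6 per direction most reduced or turned round with TGFβ, and list members where a list is accounted for. The test was tried on simulated data before use.

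Alternatives were RLE and upper-quartile scaling, DESeq2 1.42.0, other filters, leaving out each library, a replicate block, the 6 libraries alone and, added after seeing the data, a covariate for RNAs without a poly(A) tail. Gene positions are from GENCODE on GRCm39 and promoter sequences from RefSeq on GRCm38.p6; the builds were not mixed. The authors' normalized counts were not used here, and some genes of the lists are counted but not reported by name.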

Additional observations from a re-analysis of the deposited data

Results flagged for a closer look

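The response of 12 genes differed between cells without and with TGFβ by the interaction test, in the direction of a reduced or reversed response. They are the 6 per direction chosen for that from the same libraries that the test used, so their direction is not independent evidence. The interaction is the log2 fold change of Pam3 with TGFβ minus that without it, from edgeR with adjusted p-values over all tested genes, n = 3 libraries in each of the 4 groups.

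Of genes higher with Pam3 without TGFβ, Ipcef1 rose by 0.42 without TGFβ (0.27 without untreated replicate 2) and fell by 1.16 with it (interaction −1.58, SE 0.146, adjusted p 9.32e-09). Lcn2 had 5.77 and 3.73 (interaction −2.05, SE 0.642, adjusted p 0.0334), and Saa3 3.80 and 2.52 (interaction −1.29, SE 0.437, adjusted p 0.0451). For Lcn2 the difference was −3.76 without untreated replicate 3 and −1.51 without untreated replicate 2, and it was not called in 8 of 18 alternative fits (adjusted p up to 0.198), nor that of Saa3 in 10 of 18 (up to 0.187). Spsb1, an adaptor of ubiquitin ligases, had 1.24 and −0.18 (interaction −1.42, SE 0.297, adjusted p 0.00117). Its rise without TGFβ was not called in the fit of the 6 libraries alone (adjusted p 0.159) or without untreated replicate 2 (0.0531). Ceacam18, an adhesion molecule gene, had 2.03 and 0.51 (interaction −1.52, SE 0.393, adjusted p 0.00764). Zfp819, a zinc finger gene, had 2.19 and 0.70 (interaction −1.49, SE 0.413, adjusted p 0.0131; 0.0514 without untreated replicate 2).

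Of genes lower without TGFβ, Areg (amphiregulin), an EGF receptor ligand, fell by 1.41 without TGFβ and rose by 2.96 with it (interaction 4.38, SE 0.444, adjusted p 4.67e-08). Mmp13, a collagenase, fell by 0.63 and rose by 3.08 (interaction 3.70, SE 0.183, adjusted p 5.15e-13). The kinase gene Plk2 had −0.23 and 1.49 (interaction 1.71, SE 0.112, adjusted p 2.01e-11), and its fall without TGFβ was not called when any 1 of 5 libraries (all but untreated replicate 2) was left out (adjusted p 0.0501 to 0.111). The homeobox gene Mkx had −0.50 and 0.81 (interaction 1.31, SE 0.154, adjusted p 5.22e-07). Plekhh1 had −1.92 and 0.48 (interaction 2.40, SE 0.698, adjusted p 0.0179; 0.0529 without Pam3 replicate 2, where its fall without TGFβ was not called either, adjusted p 0.0671). Atp2b4, a calcium pump of the cell membrane, had −1.83 and −0.63 (interaction 1.20, SE 0.386, adjusted p 0.0341), not called in 8 of 18 alternative fits (up to 0.175).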

How the results depend on the processing

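The counts of genes called higher, called lower, and called with a called interaction (1419, 1278 and 1063) stayed within 1.5 times under every scaling, filter, tool and sample choice. Leaving out 1 library gave 1046 to 1524, 919 to 1348 and 807 to 1112, lowest for the first 2 without Pam3 replicate 1. With a log2 change of at least 1 the counts of higher and lower genes were 228 and 59, by construction. DESeq2 gave 1475, 1453 and 1199, and the 6 libraries alone 1258 and 1055. With the replicate block the counts were 1452, 1299 and 1093. Whether libraries that share a replicate number were paired cannot be told. Deviations of same-numbered untreated and Pam3 libraries from their group means correlated at 0.191, −0.0777 and 0.221. Those of differently numbered libraries correlated at −0.323 to 0.206, and so few values cannot decide it. With the covariate for RNAs without a poly(A) tail the counts were 1426, 1264 and 1023, of which 1373, 1227 and 986 were shared with the main calls. No called fold change or interaction of a named gene changed sign; among those not called, 6 fold changes near 0 (Tgfb1, Ccl4, H2-Aa, H2-Ab1, H2-D1, H2-Eb1) and the interactions of Cx3cr1, Maf and Pparg did. Of 5381 values of named genes under alternatives 191 lost and 8 gained a call, and of 446 of named interactions 28 lost and 1 gained one; the cause was not tested. Fold changes of genes with few counts depend on single libraries: Lcn2 ranged from 5.24 to 7.49. Genes under about 1 CPM rest on few counts.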

Other observations

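Genes outside the lists, chosen after their values were seen, also changed. Lox (lysyl oxidase), which crosslinks collagen, had 3.94, 3.49 and 2.79 CPM untreated and 42.9, 36.6 and 29.8 CPM with Pam3, or 3.41 on the log2 scale, with SE 0.16 and an adjusted p of 1.34e-11 by edgeR. Pou2f2, a POU factor best known from B cells, had 17.2, 17.4 and 14.2 CPM untreated and 74.5, 73.7 and 72.4 CPM with Pam3 (2.17, adjusted p 7.73e-16). All Pam3 libraries were above all untreated ones in both. Rnf213, a large ubiquitin ligase, rose from 112 ± 7.89 to 439 ± 37.7 CPM (mean ± SD, n = 3), and Cd38, an enzyme that consumes NAD, from 90.8 ± 3.04 to 203 ± 8.25 CPM. Inhba, the activin subunit, rose by 0.97, Fst, which binds activin, by 1.31, and Ereg, an EGF receptor ligand, by 1.24. Areg, of the same family as Ereg, fell.

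Among lower genes, Slco2b1, an organic anion transporter, went from 48.3, 47.7 and 48.6 to 20.7, 22.5 and 21.7 CPM (−1.15, SE 0.062, adjusted p 9.40e-13), and Kazald1 from 91.2, 91.5 and 81.2 to 40.6, 42.4 and 40.1 CPM (−1.10). The groups did not overlap in either gene. Cyp27a1, which makes 27-hydroxycholesterol, fell by 1.14, the Fc receptor gene Fcgrt by 0.75, the ectonucleotidase gene Entpd1 (CD39) by 0.70, and the hypoxia factor gene Epas1 by 0.62.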
